A study of Homo sapiens with 6 samples.

Results

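The 10 genes described here belong to the unfolded protein response. They are the sensors ERN1, EIF2AK3 and ATF6 and 7 effectors and targets, XBP1, DDIT3, HSPA5, HSP90B1, SDF2L1, DNAJB9 and HERPUD1. They were taken by gene symbol from a table of 58735 genes, by a rule that uses no measured value but was proposed with earlier results of these data known, and each symbol matched a row. HCT116, an established human colorectal carcinoma cell line, was transfected with a control (CTR, 3 libraries, genotype labelled WT) or with miR-8485 mimics at 50 nM (miR-8485, 3 libraries). The study's methods place the collection of cells at 48 h or at times given per experiment. Their section on RNA-seq gives no time of its own. A mimic is a short synthetic RNA that stands in for the mature miRNA. Both groups share the cell line and went through transfection, and the sequence and dose of the control are not given in the sources used here. The study asked how miR-8485 alters the transcriptome of these cells, in a single line, at a single dose and with no series of times described for RNA-seq.

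The endoplasmic reticulum (ER) folds secreted and membrane proteins, and cells answer an excess of unfolded protein there through the 3 sensors. ERN1 (IRE1) is a kinase and RNase that excises an intron from XBP1 mRNA, EIF2AK3 (PERK) phosphorylates the translation factor eIF2 and thereby favours translation of ATF4, which induces DDIT3 (CHOP), and ATF6 travels to the Golgi, where proteases release a transcription factor from it. The ER chaperone HSPA5 (BiP) binds the sensors in the resting state and is itself a classical target of the response. Secretory and epithelial cells use this pathway to match folding capacity to load.

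The transfected strand is shown because its seed sets the sequence searched for in the members. It is printed 5′ to 3′ with seed bases 2 to 8 in capitals, and its match in DNA letters is TGTGTGT.

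miR-8485 mimic: cACACACAcacacguau

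The next sequences are the ER stress response elements in the promoters of the members, shown because they are the binding sites through which ATF6 and XBP1 are known to act. RefSeq promoters of GRCh38.p14 run from 250 bases before to 50 bases after the start annotated there. They matched 10 of 10 members and were searched on both strands for 3 motifs. These starts can differ from the gene coordinates given with the expression values below. Both elements of HSP90B1 lie within its coordinates there, 103930107 to 103953645. These were ERSE (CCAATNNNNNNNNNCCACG), ERSE-II (ATTGGNCCACG) and the core of the XBP1 element UPRE (TGACGTGG). Capitals mark the motif, and each line gives the strand of the gene.

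XBP1, ERSE, chr22:28800598-28800625, minus strand: ctggCCAATCGCGGAGGGCCACGaccgt
HSPA5, ERSE, chr9:125241386-125241413, minus strand: ttcaCCAATCGGCGGCCTCCACGacggg
HSP90B1, ERSE, chr12:103930212-103930239, plus strand: ctgaCCAATCGGAAGGAGCCACGcttcg
HSP90B1, ERSE reversed, chr12:103930317-103930344, plus strand: ggtgCGTGGTGCGGCGCGATTGGtgggt
HERPUD1, ERSE-II, chr16:56932017-56932044, plus strand: ggacgccgATTGGGCCACGttgggagag
SDF2L1, ERSE-II reversed, chr22:21642106-21642133, plus strand: ctcggaagCGTGGACCAATcaaaaccct

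ERSE was found in 3 of the 10 members and ERSE-II in 2, and the UPRE core in 0. None of these matches overlapped another. Across 27305 genes with a promoter in the same table, ERSE was present in 25 (0.0916%), ERSE-II in 19 (0.0696%) and the UPRE core in 253 (0.927%). The motifs are known elements of this response, and the members were picked as parts of it. A higher share in the members is therefore no result of these data. The sensors ERN1, EIF2AK3 and ATF6, and also DDIT3 and DNAJB9, held none of the 3 motifs in this window. A match is a description of the letters and not a measured binding site.

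**Figure D1:**
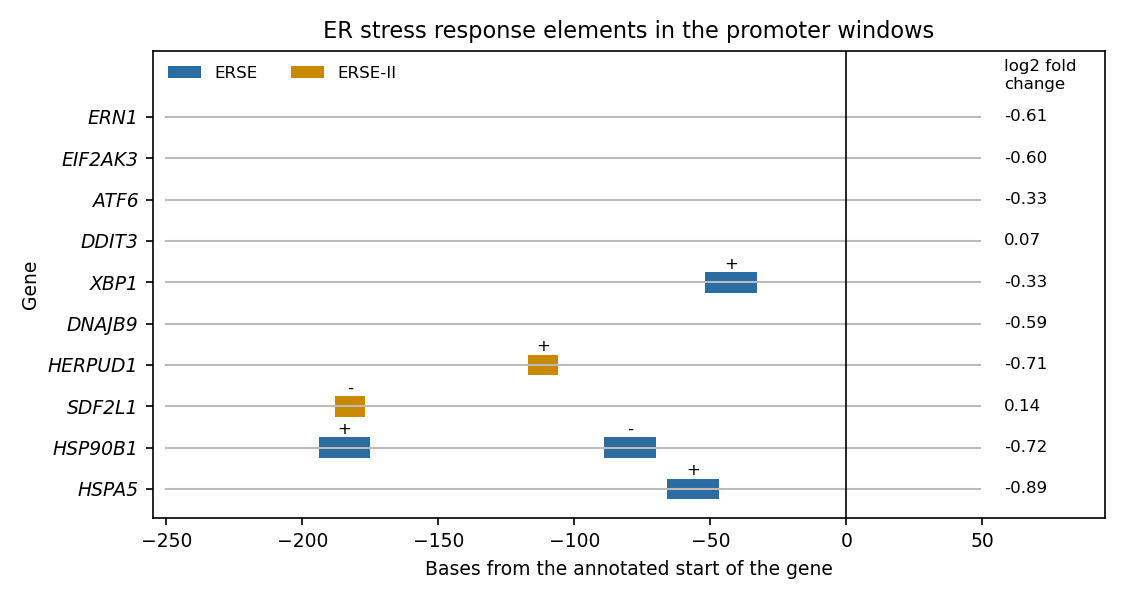
Positions of ERSE (blue) and ERSE-II (orange) in the promoter windows of the 10 genes, in bases from the start annotated in RefSeq. The strand of the motif relative to the gene is above each box, and the log2 fold change of the gene is at the right. HSP90B1 holds 2 elements, at -194 and -89, and the elements of HSPA5 and XBP1 begin at -66 and -52.

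Expression is given as FPKM, the fragments of a gene divided by its length and by a total for the library. The libraries held 17473874 to 17888110 fragments on listed genes in CTR and 17710376 to 18480047 in miR-8485. All values above 0 were whole numbers of fragments within a tolerance of 0.05. The totals implied by the value of 1 fragment were 18030858 to 18098612 in CTR and 17961005 to 19046342 in miR-8485. They are not the fragments on listed genes, and how they were set is not known here. EPCAM (135 FPKM in CTR and 130 in miR-8485) and CDH1 (19.7 and 19.0 FPKM) marked the cells as epithelial and were not called changed, whereas KRT8, KRT18 and KRT19 were called lower, CDX2 was called higher and VIL1 was near 0. Of 6 markers of other cell types, PTPRC, CD3E and COL1A2 were at 0 or at 1 fragment in every library, PECAM1 was at most 0.0855 FPKM, ALB was at 0.0164 to 0.0491 FPKM in CTR and higher, at 0.229 to 0.462 FPKM, in miR-8485 (not tested), and COL1A1 was called higher, from 4.25 to 6.31 FPKM. Their part in the results was not tested. In bulk RNA a lower share of expressing cells and less RNA per cell cannot be told apart, and FPKM is relative to the total of each library.

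Changes were tested on log2(FPKM + 0.1) with limma, and a gene was called changed at an adjusted p under 0.05 after Benjamini-Hochberg correction over all 12349 genes whose mean reached 1 FPKM. All 10 members passed this filter. On this scale a fold change slightly understates the change of low genes. In miR-8485, 8 of the 10 members were called lower, 0 were called higher and 2, DDIT3 and SDF2L1, were not called. Among all tested genes 30.5% were called lower and 29.1% higher. For the same 8 members the libraries of the 2 groups did not overlap, which held for 66.5% of all tested genes. The median log2 fold change was -0.59 over the members and -0.0041 over all tested genes. The 8 members called lower stood at 54.0% to 79.4% of their CTR mean.

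**Figure D2:**
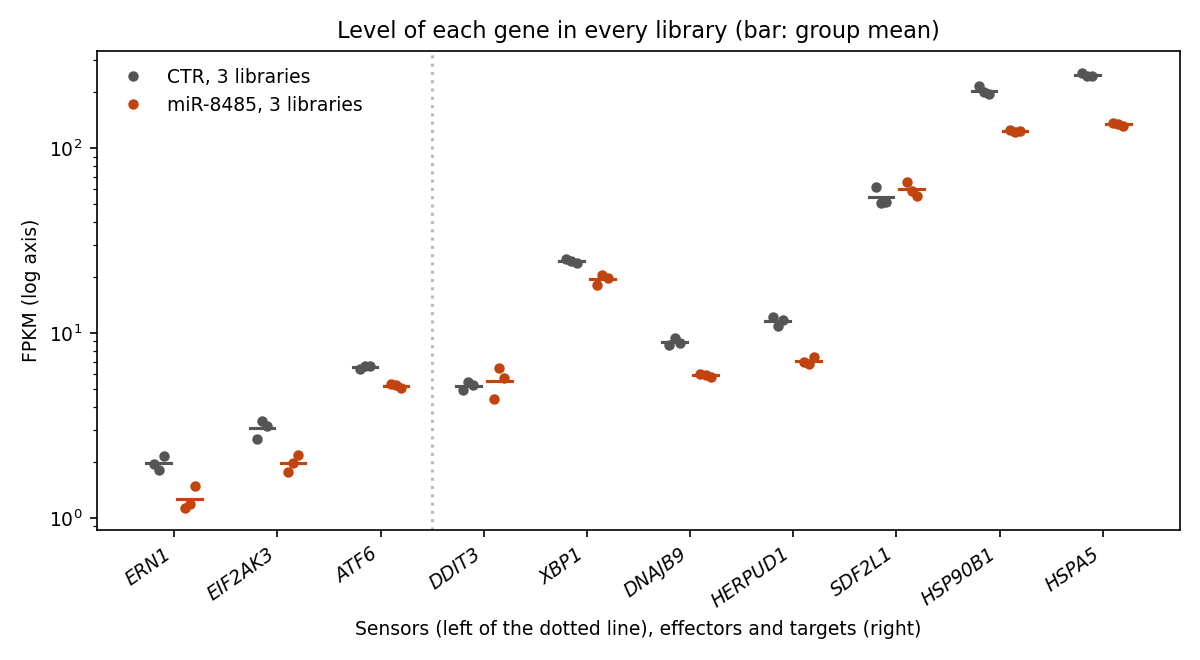
FPKM of the 10 genes in each of the 6 libraries on a logarithmic axis, with one point per library and a line at the mean of each group of 3. The points of both groups are apart for 8 genes and overlap for DDIT3 and SDF2L1.

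The sensors were, with DDIT3, the least abundant members, and all 3 were called lower. ERN1 on chromosome 17 (GRCh38 64039142 to 64130819, minus strand) was at 1.94, 1.82 and 2.15 FPKM in CTR replicates 1 to 3 and at 1.13, 1.19 and 1.48 FPKM in miR-8485 replicates 1 to 3. All miR-8485 libraries lay below all CTR libraries, although miR-8485 replicate 3 stood above the other two. ERN1 went from 1.97 ± 0.167 to 1.27 ± 0.189 FPKM (SD, n = 3), a change of -0.61 ± 0.15 (SE) in log2 units (limma, Benjamini-Hochberg adjusted p = 0.0087). These values rest on 221 to 423 fragments per library.

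EIF2AK3, the PERK kinase on chromosome 2 (88556741 to 88627576, minus strand), was at 2.67, 3.33 and 3.15 FPKM in the CTR libraries and at 1.76, 1.98 and 2.18 FPKM in the miR-8485 libraries. The groups did not overlap, and the spread within each was wide relative to that of ATF6. Its mean went from 3.05 ± 0.338 to 1.98 ± 0.211 FPKM (SD, n = 3), or 64.8% of CTR, with a change of -0.60 ± 0.12 (SE) in log2 units (limma, Benjamini-Hochberg adjusted p = 0.0036). EIF2AK3 rests on 172 to 327 fragments per library, and its standard error, like that of ERN1, was larger than those of the abundant chaperones.

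ATF6, the membrane-bound transcription factor on chromosome 1 (161766294 to 161964070, plus strand), was at 6.38, 6.61 and 6.67 FPKM in CTR and at 5.26, 5.21 and 5.06 FPKM in miR-8485. The replicates of each group lay close together and the groups were apart. The fall from 6.55 ± 0.154 to 5.18 ± 0.104 FPKM (SD, n = 3) was smaller than that of the other sensors in its fitted value, with a change of -0.33 ± 0.05 (SE) in log2 units (limma, Benjamini-Hochberg adjusted p = 0.0012). Relative to the CTR mean, the miR-8485 libraries ranged from -0.36 to -0.31 on the log2 scale for ATF6, from -0.75 to -0.39 for ERN1 and from -0.75 to -0.46 for EIF2AK3. The ratio of ATF6 to ERN1 within a library, which no scaling between libraries can alter, was 3.10 to 3.63 in CTR and 3.41 to 4.65 in miR-8485. These ranges overlapped (exact two-sided permutation test of the log2 ratio, p = 0.2, and 0.2 after Benjamini-Hochberg adjustment over 4 ratios). With 3 against 3 libraries this permutation test cannot give a p below 0.1, so it cannot decide whether these sensors differ in their change.

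Of the transcription factors acting after ERN1 and EIF2AK3, XBP1 was called lower and DDIT3 was not called. XBP1 on chromosome 22 (28794555 to 28800597, minus strand) was at 25.2, 24.4 and 24.0 FPKM in CTR and at 18.1, 20.5 and 19.8 FPKM in miR-8485. The groups were apart. XBP1 fell to 79.4% of CTR, from 24.5 ± 0.622 to 19.5 ± 1.25 FPKM (SD, n = 3), with a change of -0.33 ± 0.06 (SE) in log2 units (limma, Benjamini-Hochberg adjusted p = 0.0018). FPKM per gene adds spliced and unspliced XBP1 mRNA together, and it measures neither cleavage of ATF6 nor phosphorylation of the kinases. The pseudogene XBP1P1 was at 0.0847 to 0.594 FPKM, or 1 to 7 fragments per library, so that reads placed on it were few beside the 984 to 1377 fragments of XBP1.

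DDIT3 (CHOP), a transcription factor linked to cell death under lasting ER stress, lies on chromosome 12 (57516588 to 57521737, minus strand). It was at 4.92, 5.46 and 5.20 FPKM in CTR and at 4.39, 6.47 and 5.70 FPKM in miR-8485. One miR-8485 library lay below all CTR libraries and the remaining miR-8485 libraries lay above them. The means of 5.19 ± 0.267 and 5.52 ± 1.05 FPKM (SD, n = 3) gave a change of 0.07 ± 0.13 (SE) in log2 units (limma, Benjamini-Hochberg adjusted p = 0.67), and its sign turned when miR-8485 replicate 2 was left out (-0.051) and under the TPM scaling described later (-0.044). DDIT3 rests on 103 to 153 fragments per library. In GENCODE 44, 355 bases or 27.2% of its exon sequence also belong to exons of MARS on the opposite strand, a gene at 24.8 FPKM in CTR and 19.8 FPKM in miR-8485 that was called lower (log2 fold change -0.33), and 58 bases (4.44%) belong to MBD6, which was called higher (0.39). Of its exon bases, 105 (8.03%) also belong to an unnamed protein-coding gene on the same strand, at 0 FPKM in every library. The strand setting of the counting is not given in the sources used here. It is therefore not known how fragments in the shared bases were counted.

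The ER chaperones HSPA5 and HSP90B1 had the highest levels of the 10 genes, and both were called lower. HSPA5, the BiP chaperone on chromosome 9 (125234853 to 125241330, minus strand), was at 256, 244 and 247 FPKM in CTR and at 137, 135 and 131 FPKM in miR-8485. The replicates of a group differed by much less than the groups did. HSPA5 fell from 249 ± 6.46 to 135 ± 2.87 FPKM (SD, n = 3), or 54.0% of CTR, with a change of -0.89 ± 0.04 (SE) in log2 units (limma, Benjamini-Hochberg adjusted p = 4.9e-06), and 6.27% of all tested genes had a fold change as low or lower. At 9556 to 18053 fragments per library, it is among the members with the most fragments behind them.

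HSP90B1 (GRP94), the HSP90 chaperone of the ER on chromosome 12 (103930107 to 103953645, plus strand), was at 215, 201 and 196 FPKM in CTR and at 125, 122 and 124 FPKM in miR-8485. The groups were again far apart. Its mean went from 204 ± 10.2 to 124 ± 1.66 FPKM (SD, n = 3), a change of -0.72 ± 0.05 (SE) in log2 units (limma, Benjamini-Hochberg adjusted p = 1.8e-05), and 9.12% of the tested genes fell as much or more. Of its exon bases, 6.15% are shared with the opposite-strand gene C12orf73, which was near 4 FPKM in both groups and was not called.

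HSPA5 and HSP90B1 share the ERSE motif printed above with XBP1, which had a smaller fitted fall. Within a library, HSPA5 was 1.19 to 1.26 times HSP90B1 in CTR and 1.06 to 1.11 times in miR-8485, and the ranges did not overlap. The exact two-sided permutation test of this ratio gave p = 0.1, the smallest value that 3 against 3 libraries allow, and 0.133 after Benjamini-Hochberg adjustment over the 4 ratios compared. HSPA5 was 20.6 to 23.3 times the summed level of the 3 sensors in CTR and 15.0 to 16.8 times in miR-8485, with the same p-values.

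SDF2L1, an ER protein that works with HSPA5 and its cochaperones, was not called. On chromosome 22 (21642261 to 21644298, plus strand), it was at 61.4, 50.7 and 51.2 FPKM in CTR and at 65.5, 58.4 and 55.3 FPKM in miR-8485. CTR replicate 1 was the highest of its group and lay within the range of the miR-8485 libraries. The means of 54.4 ± 6.04 and 59.7 ± 5.22 FPKM (SD, n = 3) gave a change of 0.14 ± 0.09 (SE) in log2 units, which was not called (adjusted p = 0.235 in limma with Benjamini-Hochberg adjustment). Without CTR replicate 1 the log2 fold change was 0.23 and SDF2L1 was called higher (adjusted p = 0.0343 in limma with Benjamini-Hochberg adjustment). The ratio of HSPA5 to SDF2L1 within a library went from 4.17 to 4.81 in CTR to 2.09 to 2.37 in miR-8485, a log2 difference of -1.02 (exact two-sided permutation p = 0.1, and 0.133 adjusted). SDF2L1 rests on 1008 to 1293 fragments per library.

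DNAJB9 and HERPUD1 act where unfolded proteins are recognised and sent for degradation, and both were called lower. DNAJB9 (ERdj4), an ER cochaperone of HSPA5 that also restrains ERN1, lies on chromosome 7 (108569568 to 108574850, plus strand) and was at 8.60, 9.45 and 8.78 FPKM in CTR and at 5.99, 5.94 and 5.81 FPKM in miR-8485. The miR-8485 libraries were close to one another and below all CTR libraries. It went from 8.95 ± 0.447 to 5.91 ± 0.0911 FPKM (SD, n = 3), with a change of -0.59 ± 0.06 (SE) in log2 units (limma, Benjamini-Hochberg adjusted p = 9.6e-05).

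HERPUD1, a membrane protein of the ER-associated degradation complex, lies on chromosome 16 (56932048 to 56944863, plus strand). It was at 12.2, 10.9 and 11.7 FPKM in CTR and at 6.97, 6.78 and 7.41 FPKM in miR-8485. The groups did not overlap, and the fall from 11.6 ± 0.698 to 7.05 ± 0.327 FPKM (SD, n = 3) left 60.7% of the CTR mean, the same share as for HSP90B1. The change was -0.71 ± 0.06 (SE) in log2 units (limma, Benjamini-Hochberg adjusted p = 7.4e-05). HERPUD1 and SDF2L1 are the members with an ERSE-II motif in their promoters, and a difference between their changes was not tested.

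**Figure D3:**
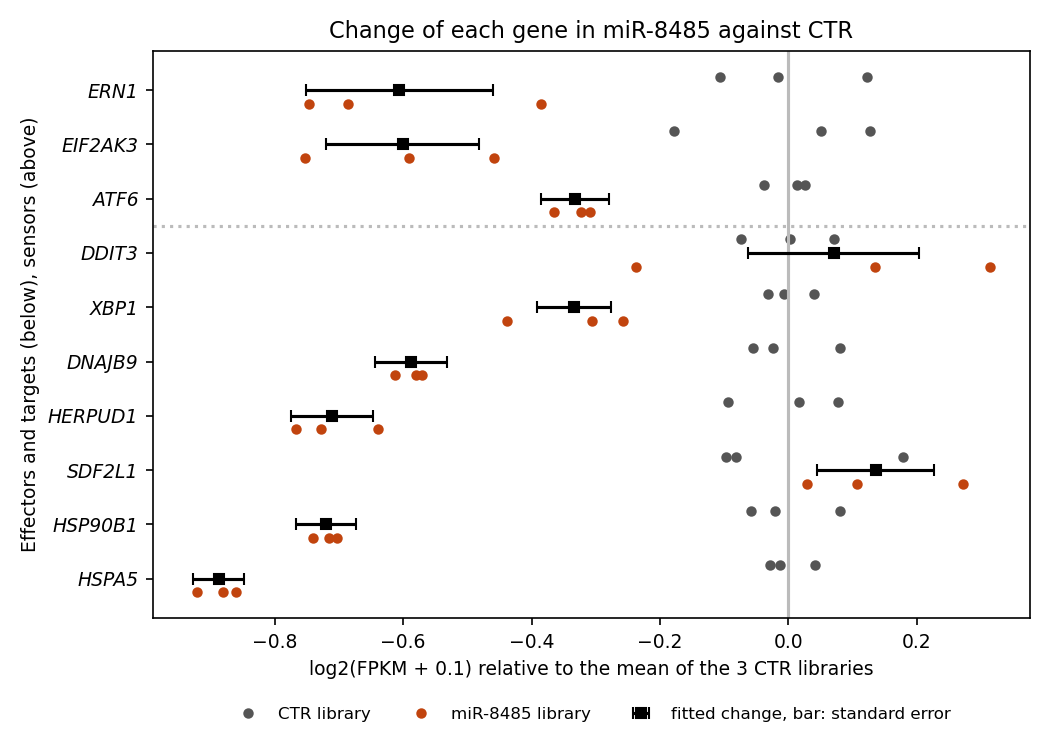
Values of each library as log2(FPKM + 0.1) minus the average over the 3 CTR libraries, for CTR (grey) and miR-8485 (orange), with the fitted change and its standard error in black. The fitted changes run from -0.89 for HSPA5 to 0.14 for SDF2L1, and the points of both groups mix for DDIT3 and SDF2L1.

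Set side by side, the sensors (3 of 3 called lower) had a median log2 fold change of -0.60 and the effectors and targets (5 of 7 called lower) one of -0.59. These medians depended on the pseudocount, and with 1 in place of 0.1 they were -0.39 and -0.52. Rescaling the FPKM to a fixed sum per library (TPM) moved the median of all tested genes to -0.12 and gave 2613 genes called higher and 4725 called lower, against 3593 and 3769 on the scale used here. The same 8 members were called lower under TPM. Relative to the median of all tested genes, the log2 fold change of HSPA5 was -0.88 on both scales.

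The order of the levels changed at 1 place. FPKM divides by 1 length per gene, whichever transcripts of the gene were expressed, so the order depends on that length. In CTR the order from high to low was HSPA5, HSP90B1, SDF2L1, XBP1, HERPUD1, DNAJB9, ATF6, DDIT3, EIF2AK3 and ERN1, and no neighbouring genes had overlapping ranges over the 3 libraries. In miR-8485 the mean of DDIT3 passed that of ATF6, and the range of DDIT3 overlapped those of DNAJB9 and ATF6, so that these neighbours do not differ beyond their spread.

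Matches to the mimic's seed were searched in the 3′ UTR of the canonical GENCODE 44 transcript of each member. TGTGTGT was present in ERN1 (3 copies in 4846 bases, overlapping copies counted), ATF6 (3 in 5416), DNAJB9 (3 in 1497), HERPUD1 (3 in 1574) and HSPA5 (1 in 1739). A copy from each is shown with the site in capitals, on the strand of the gene in GRCh38.

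ERN1, chr17:64039790-64039816, minus strand: ccctgtgtacTGTGTGTgtgtttggtg
ATF6, chr1:161961623-161961649, plus strand: ttgtgggtaaTGTGTGTatttttttat
HSPA5, chr9:125236334-125236360, minus strand: tgggttagggTGTGTGTtcaccttcaa
DNAJB9, chr7:108574113-108574139, plus strand: tttatgtgttTGTGTGTgtgtagttta
HERPUD1, chr16:56943589-56943615, plus strand: cttttccaaaTGTGTGTgtctgcatgt

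In ERN1 and DNAJB9 the site lies within a run of 11 alternating T and G bases, which by itself holds all 3 counted copies. The longest run in ATF6 is 7 bases, so its 3 copies lie apart. The 3′ UTRs of EIF2AK3 (995 bases), XBP1 (615), HSP90B1 (264), DDIT3 (216) and SDF2L1 (124) held no copy of TGTGTGT. Their longest runs of alternating T and G were 7 bases in SDF2L1, 6 in EIF2AK3 and HSP90B1 and 4 in XBP1 and DDIT3. Matches to other stretches of the mimic were not counted, and other transcripts of a gene were not searched. This limit also holds for XBP1, whose spliced and unspliced mRNA are added together in its FPKM. All 5 members with the site were called lower, and of the 5 without it EIF2AK3, XBP1 and HSP90B1 were called lower as well. Over the 10672 tested genes with a 3′ UTR, 3085 (28.9%) held the site, and 44.5% of these were called lower against 29.2% of those without it. The genes with the site also had longer 3′ UTRs, at a median of 2721 against 877 bases, and the part of this length in the difference was not tested. The presence of the letters does not show that the mimic bound there.

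The genes nearest to the sensors, namely a substrate, a downstream factor, proteases and a paralog, were not all called in the same direction. ATF4, the transcription factor between EIF2AK3 and DDIT3, fell from 126 to 90.8 FPKM (log2 fold change -0.47, adjusted p = 1.8e-04 in limma with Benjamini-Hochberg adjustment), and EIF2S1, the eIF2 subunit that EIF2AK3 phosphorylates, from 36.0 to 31.8 FPKM (-0.18, adjusted p = 0.020). Of the proteases that cut ATF6, MBTPS1 rose from 15.5 to 22.5 FPKM (0.54, adjusted p = 1.1e-04) and MBTPS2 fell from 3.70 to 2.87 FPKM (-0.35, adjusted p = 0.024). ATF6B, the paralog of ATF6, rose from 11.0 to 14.9 FPKM (0.43, adjusted p = 7.2e-04), opposite in sign to ATF6. The call for MBTPS2 was lost without a filter and without CTR replicate 2 or 3 or miR-8485 replicate 1 or 3 (limma, adjusted p = 0.0594 to 0.0796), and that for EIF2S1 without miR-8485 replicate 3 (limma, adjusted p = 0.0727).

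Around the members, 4 lists of pathway genes were counted in the same fit, and the share called lower was above the 30.5% of all tested genes in each. Of the sensor partners and processing enzymes, 17 of 20 were tested, 8 (47.1%) were called lower and 3 (17.6%) higher, with a median log2 fold change of -0.06. The largest falls were those of the ER-bound transcription factor CREB3L2 (5.40 to 0.979 FPKM, log2 fold change -2.35) and the kinase MAP3K5, which acts after ERN1 (2.82 to 0.980 FPKM, -1.44), followed by WFS1 (-0.35). CREB3L4, a relative of CREB3L2, rose from 1.98 to 4.09 FPKM (1.03).

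Of the PERK branch and integrated stress response, 21 of 24 genes were tested, 11 (52.4%) were called lower and 5 (23.8%) higher, with a median of -0.22. Those called higher included BBC3, a proapoptotic BCL2 family gene that p53 also induces (8.23 to 29.1 FPKM, log2 fold change 1.81), the transcription factor ATF3 (8.41 to 15.8 FPKM, 0.90) and the pseudokinase TRIB3 (9.82 to 14.7 FPKM, 0.58). The largest falls were those of the oxidase ERO1A (13.9 to 5.61 FPKM, -1.30), the double-stranded RNA kinase EIF2AK2 (7.24 to 3.19 FPKM, -1.15) and DDIT4, an inhibitor of mTORC1 (75.5 to 42.0 FPKM, -0.85). The proapoptotic gene BCL2L11 (4.69 to 2.59 FPKM, -0.83) and CEBPB (72.1 to 40.6 FPKM, -0.82) fell by about as much as DDIT4. They were named after their values were seen.

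All 27 ER chaperones and folding enzymes were tested, and 16 (59.3%) were called lower and 5 (18.5%) higher, with a median of -0.27. The disulfide isomerases PDIA4 (101.5 to 62.0 FPKM, log2 fold change -0.71) and PDIA3 (106 to 70.9 FPKM, -0.58) and the ER stress protein MANF (29.1 to 19.1 FPKM, -0.60) fell most. SIL1, the nucleotide exchange factor of HSPA5, rose from 4.72 to 8.11 FPKM (0.77), ERP29 rose from 37.5 to 55.6 FPKM (0.57), and SDF2, the paralog of SDF2L1, rose from 10.3 to 13.8 FPKM (0.42).

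Of the genes of ER-associated degradation and translocation, 29 of 30 were tested, 18 (62.1%) were called lower and 2 (6.90%) higher, with a median of -0.20. The falls were led by the translocon-associated subunit SSR1 (16.2 to 7.10 FPKM, log2 fold change -1.18), by DERL1 (13.6 to 6.44 FPKM, -1.06) and by SEL1L, the scaffold of the degradation complex that HERPUD1 joins (6.85 to 3.36 FPKM, -1.01). OS9, a lectin of the same complex, rose from 18.0 to 21.9 FPKM (0.28), and the signal peptidase subunit SPCS3 rose from 17.3 to 19.4 FPKM (0.17). The call for SPCS3 was lost under TPM (log2 fold change 0.053, limma adjusted p = 0.528) and without CTR replicate 2 or miR-8485 replicate 2 or 3. In all 4 lists the genes named here were called at an adjusted p under 0.05 in limma with Benjamini-Hochberg adjustment.

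**Figure D4:**
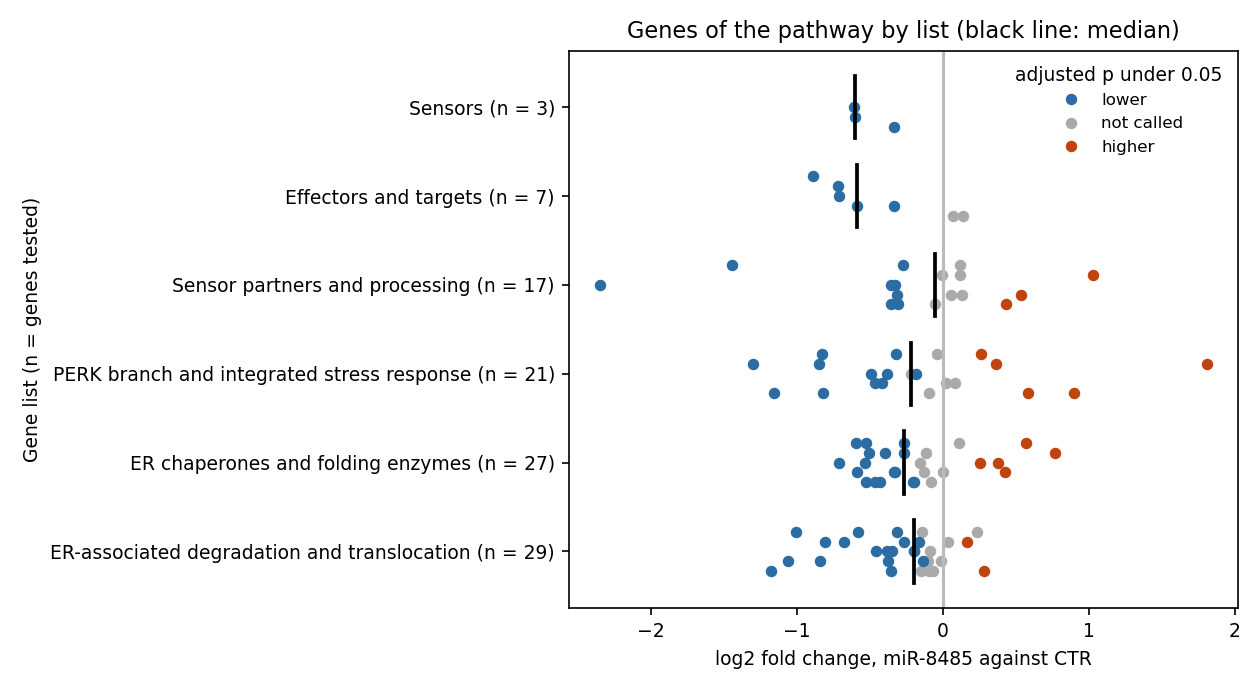
Log2 fold change of each tested gene among the sensors, the effectors and targets and the 4 pathway lists, one point per gene, coloured by the call, with the median as a black line. The medians run from -0.60 for the sensors to -0.06 for the sensor partners, and each of the 4 pathway lists holds genes called lower, called higher and not called.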

How the data were processed

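RNA-seq was measured in 3 CTR and 3 miR-8485 libraries, grouped by their GEO labels. The study's methods describe the replicates as independent biological ones. The authors trimmed reads with fastp 0.23.1, mapped them to hg38 with HISAT2 2.0.5, counted fragments per gene with featureCounts 1.5.0-p3 and deposited FPKM. In the main fit no further scaling between libraries was applied. The study's own test modelled counts. The values used here are FPKM, so log2(FPKM + 0.1) was tested instead with limma 3.58.1 in R 4.3.3 (two-sided, variance trend, Benjamini-Hochberg), after a check on simulated data. Ratios within libraries were compared by exact permutation. Python 3.11.15 with scipy 1.17.1 was used elsewhere.

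The members, the pathway lists and the motifs were chosen with earlier results of these data known. All members, the 5 direct partners of the sensors and genes that overlap a member and passed the filter were named. So were up to 3 called genes per direction of each list whose libraries do not overlap. Alternatives covered the pseudocount, the filter, the scaling, the variance trend, a replicate block, voom on recovered fragments and each library left out. Promoters came from RefSeq (GRCh38.p14), 3′ UTRs and exon overlaps from GENCODE 44, and the mimic's sequence from the study's methods.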

Additional observations from a re-analysis of the deposited data

How the results depend on the processing

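The 8 members called lower were called lower in 14 of 15 alternatives, and with a filter of 5 FPKM, ERN1 and EIF2AK3 were not tested, so that the median of the sensors could not be given. Their log2 fold changes ranged from -0.84 to -0.68 for HSP90B1 and from -0.74 to -0.39 for ERN1, whose adjusted p reached 0.0355 in limma. Over the fits that left out each library in turn, 8 members were called lower throughout, 0 to 1 were called higher, and the median of the effectors and targets was -0.62 to -0.55, moving beyond the replicate spread without CTR replicate 2. A pseudocount of 1 gave medians of -0.39 for the sensors and -0.52 for the effectors and targets, and TPM gave -0.71 for the latter. DDIT3 turned to -0.044 under TPM and, over the fits leaving out a library, ranged from -0.051 without miR-8485 replicate 2 to 0.22 without miR-8485 replicate 1, and was not called in any alternative. The filter of 5 FPKM, which tests 6878 genes, gave 2303 genes higher, 2417 lower and 4 sensor partners lower. Genes of ER-associated degradation called higher numbered 1 under TPM and 1 to 3 with a library left out, the 1 being without CTR replicate 2 or miR-8485 replicate 2. The replicate numbers did not pair the libraries (correlations of same-numbered deviations 0.067, 0.033 and -0.064). With the replicate block 3634 genes were called higher and 3754 lower, and 1 member was called higher, SDF2L1 (log2 fold change 0.14, adjusted p = 0.0359 in limma). Depth limits ERN1, EIF2AK3 and DDIT3, at 103 to 423 fragments per library.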

Other observations

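Besides the members, 11 tested genes held an ERSE in the promoter window, among the 8766 tested genes whose promoter was matched by symbol. Of these, 5 were called lower in limma with Benjamini-Hochberg adjustment, where 30.5% of all tested genes were called lower and 29.1% higher. They were SYNPO, which encodes an actin-associated protein (log2 fold change -1.12), the lectin chaperones CALR (-0.43) and CANX (-0.33), the disulfide isomerase PDIA6 (-0.50) and the oxidase ERO1B (-0.40). TRIM5 (0.34) and ALG12, a mannosyltransferase of the ER (0.42), were called higher, and the median was -0.11. Of 11 further tested genes with an ERSE-II, 3 were called lower, namely SHCBP1 (-1.20), SETD3 (-0.58) and HYOU1, an exchange factor of HSPA5 (-0.27), and 0 were called higher, with a median of -0.10. The 3 of 11 lower calls for ERSE-II are near the 30.5% over all tested genes, and the 5 of 11 for ERSE are above it. Both rest on few genes, and the share over the 8766 genes alone was not counted. Of 110 tested genes with the UPRE core, 45 were called lower and 25 higher, with a median of -0.12. Over all tested genes these shares were 30.5% and 29.1%, and the difference was not tested. These genes were found by their motif, and those named were chosen after their values were seen. CALR, CANX, PDIA6, ERO1B and HYOU1, and also CRELD2, which holds an ERSE and was not called, were already counted among the ER chaperones and folding enzymes. Some genes with the UPRE core also stand in the pathway lists, so these counts are not separate from those above.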
